A study of Mus musculus with 6 samples.

Results

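The matrix metalloproteinases (MMP), the ADAMTS and ADAMTS-like proteins and the tissue inhibitors of metalloproteinases (TIMP) were described across mouse embryonic fibroblasts of 3 genotypes, each transfected with an oncogene vector or mock. Members were all genes on the array whose symbol began with Mmp, Adamts, Adamtsl or Timp and a number, and whose probe lay well above background on 1 or more of the 6 arrays. Of 51 such genes on the array 39 were kept, among 17293 kept named genes in all: 15 of 23 MMP genes, 15 of 19 ADAMTS genes, 5 of 5 ADAMTS-like genes and 4 of 4 TIMP genes. The 12 genes not well above background on any array were Mmp1a, Mmp7, Mmp8, Mmp16, Mmp20, Mmp21, Mmp27, Mmp28, Adamts3, Adamts17, Adamts19 and Adamts20. The number of members well above background was 23 on the transfected and 28 on the mock Per2m/m array, 30 on both Clk/Clk arrays, and 30 on the transfected and 31 on the mock wild type array. 19 members were well above background on all 6 arrays and 7 on a single array. The dimmest such levels were -5.02 for Mmp25 and -5.01 for Adamts18, on the transfected wild type array, and among the genes left out the highest level was -4.72, for Mmp16 and for Mmp28. Keeping a member through a single array favours a difference between arrays, so counts over the 39 describe them and test nothing.

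All cells were fibroblasts of ICR mice. The groups were Per2m/m, Clk/Clk and wild type cells, each transfected with a vector expressing H-Ras and SV40T or mock, with 1 array per group. Clk/Clk cells carry the Clock mutation on both alleles. Not given in the labels are which part of Per2 is altered, how many embryos gave the cells, how long after transfection they were taken, whether transfected cells were clones or a pool, or which species the H-Ras came from. With 1 array per group no comparison of 2 arrays has a replicate check. A response below is the log2 level on the transfected array minus that on the mock array of the same genotype. A level is the log2 processed signal after subtracting the 75th percentile of its array, so a level of 0 is that percentile. Repeated spots of 1 probe gave a spread of 0.08 (log2) for a ratio of 2 arrays, which covers spot noise only. A difference was called at 2-fold or more, provided the brighter of both arrays had the probe well above background. Where the dimmer array was not well above background, the fold is given as at least the ratio to the lowest level well above background on that array, or to the probe's own level where that was higher. Probe positions come from the files (build mm9), and no annotation of that build was used, so the part of the gene a probe lies in is not given.

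MMPs are zinc endopeptidases that are made as inactive proenzymes and cut collagens, laminins, proteoglycans and many other proteins outside the cell. ADAMTS enzymes are secreted relatives with thrombospondin repeats: some cut aggrecan and versican, others trim procollagens. ADAMTS-like proteins share the repeats but have no protease domain, and the TIMPs bind and block the active enzymes. In fibroblasts several MMP genes of 1 chromosome 9 cluster are textbook targets of the AP-1 (Fos and Jun) factors downstream of Ras, and CLOCK and PER2 are parts of the circadian transcription loop that acts on E-box sequences.

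1 array, transfected Per2m/m, was unlike the others, and its source name mentions H-Ras but not SV40, whereas its title and characteristics name both. Its levels correlated with those of the other 5 arrays at 0.875 to 0.908, against medians of 0.945 to 0.958 for each other array (Pearson, over genes well above background on all 6 arrays, as a description). The share of its spots well above background was 49.3%, and on the other arrays this share was 53.5% to 57.3%. Xist, Ddx3y and Eif2s3y were not well above background there at levels of -6.18, -6.74 and -6.85, while on the mock array of that genotype they were, at -0.53, -0.05 and -0.81. Xist was also not well above background on either Clk/Clk array, at -6.63 transfected and -6.79 mock. The make-up of the embryos behind each array and the genotype or transfection cannot be told apart. Fibroblast markers were well above background for 11 of 12 genes on the transfected Per2m/m and transfected wild type arrays and for 12 of 12 on the other 4, with Lum not so on those 2 arrays. Per2 lay at -2.82 transfected and -0.98 mock in Per2m/m cells, -3.88 transfected and -3.91 mock in Clk/Clk, with -2.38 transfected and -3.37 mock in wild type cells, and Clock between -0.30 and 0.78 on all 6 arrays. Hras lay at 3.16 transfected and 4.49 mock in Per2m/m cells, 3.86 transfected and 3.23 mock in Clk/Clk, with 4.01 transfected and 4.17 mock in wild type cells. These probes may lie outside the altered or introduced parts, so they check no label.

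Mmp13, Mmp12, Mmp1b, Mmp3 and Mmp10, the 5 members of the chromosome 9 cluster, were all at least 2-fold higher in Clk/Clk than in wild type transfected cells, where 13.8% of all genes were called higher. Mmp12 and Mmp1b were kept only through Clk/Clk arrays, which favours a higher level there, so their calls test nothing. The array had probes for 10 MMP genes between chr9:7282762 and 7697700 (mm9), a span of 415 kb, and the other 5 (Mmp1a, Mmp7, Mmp8, Mmp20 and Mmp27) were not well above background on any array. RefSeq promoter windows of assembly GRCm38.p6, from 250 bases before to 50 after a start site, matched 26 of the 39 members with 28 windows. The letters TGANTCA, the core to which AP-1 binds and the same on both strands, stood in 5 of these 28 windows (17.9%), against 7.81% of all 32851 windows. Those 5 windows belonged to the 5 cluster members. Members without a window, among them Mmp2, Mmp9, Adamts4 and Adamts5, could not be read. Genes left out, among them the other 5 of the cluster, were not read either. The letters CACGTG, the canonical E-box and also the same on both strands, stood in 0 of the 28 and in 7.15% of all windows, and TATAAA, read on the gene's strand only, in 7 of the 28 (25%) and in 8.32% of all. A match is a description of the letters, and no match says only that they are not in the window.

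The 140 bases from 120 before to 20 after each start site are shown for the 5 genes because theirs are the members' windows that hold TGANTCA. They run 5′ to 3′ on the gene's strand, with TGANTCA and TATAAA in capitals, which do not overlap, and lie at chr9:7272394-7272533 on the plus strand for Mmp13, chr9:7347254-7347393 on the plus strand for Mmp12, chr9:7388007-7388146 on the minus strand for Mmp1b, chr9:7445702-7445841 on the plus strand for Mmp3 and chr9:7502222-7502361 on the plus strand for Mmp10 (GRCm38.p6). For Mmp12 the table has a pair of windows, and the one without TGANTCA is not shown.
Mmp13: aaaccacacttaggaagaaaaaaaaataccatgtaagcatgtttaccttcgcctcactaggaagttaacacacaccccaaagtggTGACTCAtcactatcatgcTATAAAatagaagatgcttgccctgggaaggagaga
Mmp12: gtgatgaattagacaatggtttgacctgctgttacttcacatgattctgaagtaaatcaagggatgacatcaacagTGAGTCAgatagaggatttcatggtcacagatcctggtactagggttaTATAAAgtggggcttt
Mmp1b: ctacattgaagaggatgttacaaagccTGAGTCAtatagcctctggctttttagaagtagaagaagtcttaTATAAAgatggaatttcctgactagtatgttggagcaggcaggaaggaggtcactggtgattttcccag
Mmp3: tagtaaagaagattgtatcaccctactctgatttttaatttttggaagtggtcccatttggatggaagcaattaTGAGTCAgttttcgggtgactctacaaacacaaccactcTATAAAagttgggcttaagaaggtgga
Mmp10: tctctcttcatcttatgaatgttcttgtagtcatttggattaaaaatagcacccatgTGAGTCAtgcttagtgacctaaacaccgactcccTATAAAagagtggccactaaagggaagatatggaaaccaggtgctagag

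Counted from the RefSeq start site, TGANTCA began at base -35 in Mmp13, -44 in Mmp12, -93 in Mmp1b, -46 in Mmp3 and -63 in Mmp10. TATAAA began at -16, 5, -49, -7 and -29 in the same order. The start sites used in these cells were not measured.

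Mmp3 encodes stromelysin-1, which cuts proteoglycans and activates other pro-MMPs. Its level was -6.68 transfected (not well above background) and -1.69 mock in Per2m/m cells, 3.89 transfected and 2.63 mock in Clk/Clk, with -1.30 transfected and -2.11 mock in wild type cells. Both Clk/Clk arrays lay above the other 4. The gene was 36.6-fold higher in Clk/Clk than in wild type transfected cells and 26.6-fold higher in the mock pair. In Per2m/m cells it was at least 7.48-fold lower after transfection (a response of -4.99, or -1.80 with normexp), and at least 9.75-fold lower than in transfected wild type cells. Mmp10, stromelysin-2, lay at -6.65 transfected (not well above background) and -4.08 mock in Per2m/m cells, 0.10 transfected and 0.18 mock in Clk/Clk, with -5.28 transfected (not well above background) and -0.90 mock in wild type cells. The transfected wild type array was at least 20.9-fold below its mock, while the Clk/Clk pair differed by a log2 response of -0.08. In transfected cells Mmp10 was therefore at least 41.7-fold higher in Clk/Clk than in wild type, against 2.12-fold in mock cells.

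Mmp13, the main collagenase of rodents, ran in opposite directions. Its level was -6.76 transfected (not well above background) and -2.72 mock in Per2m/m cells, -0.68 transfected and -3.69 mock in Clk/Clk, with -4.76 transfected and 0.37 mock in wild type cells. Transfected cells were thus at least 3.66-fold lower in Per2m/m, 8.06-fold higher in Clk/Clk and 35.0-fold lower in wild type cells (normexp background correction gave log2 responses of -1.01, 1.72 and -3.36). The order of the genotypes turned with transfection: in mock cells Clk/Clk lay 16.7-fold below wild type, and in transfected cells 16.9-fold above it. Mmp1b, a mouse relative of the human interstitial collagenase, was well above background only on the Clk/Clk arrays, at -3.03 transfected and -3.22 mock, against -6.57 and -6.92 in Per2m/m and -6.25 and -7.22 in wild type cells. It was at least 5.42-fold higher in Clk/Clk than in wild type transfected cells and at least 5.83-fold in mock cells. Mmp1a is a close copy of Mmp1b, so the probe of either may read both, and Mmp1a's own probe was not well above background on any array. Mmp12, the macrophage elastase, was well above background only on the transfected Clk/Clk array, at -3.93, and lay at -4.91 on its mock array and between -6.01 and -5.10 on the other 4. That array was at least 2.89-fold above transfected wild type. A second Mmp12 probe was not well above background on any array.

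Mmp9, gelatinase B, lies outside the cluster (probe chr2:164780620-164780679, mm9) and cuts denatured collagen and basement membrane collagen. Its level was -6.71 transfected and -6.22 mock in Per2m/m cells, 1.21 transfected and 0.13 mock in Clk/Clk, with -7.11 transfected and -4.40 mock in wild type cells. It was well above background on both Clk/Clk arrays and the mock wild type array only. The probe has 10 spots, whose SD was 0.08 (log2) on both Clk/Clk arrays, and 0.30 on the mock wild type array. Mmp9 was at least 103-fold higher in Clk/Clk than in wild type transfected cells and 23.1-fold higher in mock cells. Its response was 2.12-fold higher in Clk/Clk cells and at least 2.09-fold lower in wild type cells. Macrophages and neutrophils are known sources of Mmp9 and Mmp12. Of 12 kept macrophage markers 7 were well above background on each Clk/Clk array, 7 on the transfected and 10 on the mock wild type array, and 7 and 12 on the transfected and mock Per2m/m arrays. Between Clk/Clk and wild type the 12 had a median difference of 1.1 in transfected cells, with 4 called higher and 1 lower, and of -0.92 in mock cells, with 1 higher and 4 lower. These medians include markers not well above background on either array compared. They were Lyz2, Tyrobp and Laptm5 in transfected cells, and Mrc1 and Laptm5 in mock cells. Of all genes 13.8% were called higher and 11% lower in transfected cells, and 10.5% and 10.6% in mock cells. Of 8 neutrophil markers 4 were kept, and 2 of these were well above background on each Clk/Clk array and 3 on the mock wild type array. Their log2 summed level was 1.13 transfected and 1.43 mock in Clk/Clk, against 0.39 transfected and 0.71 mock in wild type cells. The part of these markers in the Mmp9 and Mmp12 values was not tested.

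**Figure D1:**
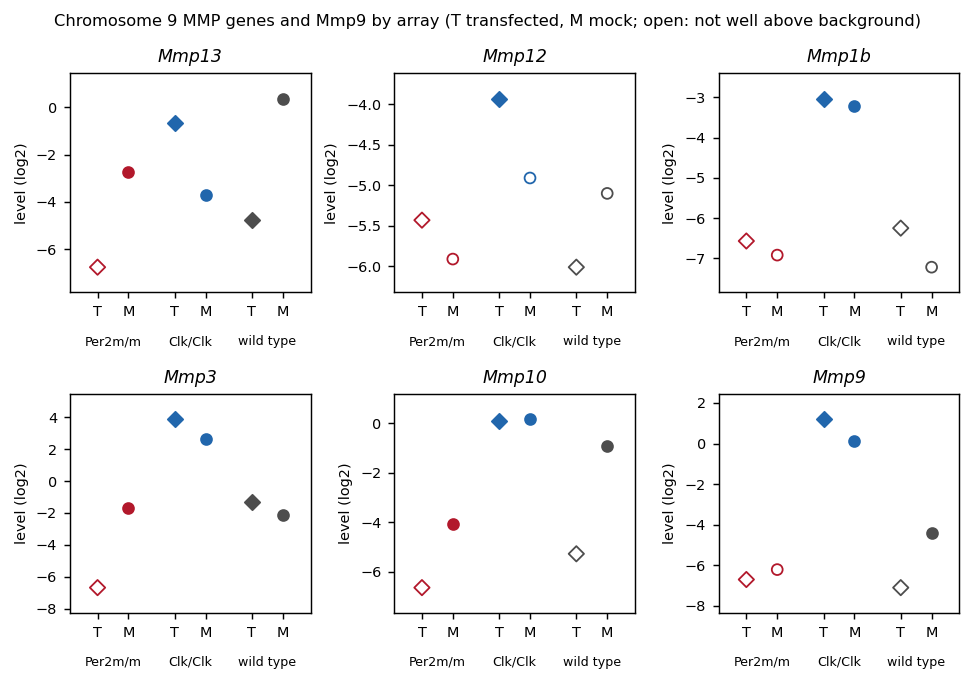
Level (log2, y axis, own scale in each panel) of 5 chromosome 9 MMP genes and Mmp9 on each of the 6 arrays, with transfected (T, diamonds) left of mock (M, circles) in each genotype and open marks for arrays not well above background. Both Clk/Clk arrays lie above the other 4 for Mmp1b, Mmp3, Mmp10 and Mmp9, while Mmp13 is at -4.76 in transfected and 0.37 in mock wild type cells.

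Mmp2, gelatinase A, is activated at the cell surface by Mmp14. Its level was 3.42 transfected and 2.05 mock in Per2m/m cells, 3.55 transfected and 3.72 mock in Clk/Clk, with 1.54 transfected and 2.75 mock in wild type cells. Mmp2 was thus 2.58-fold higher after transfection in Per2m/m and 2.32-fold lower in wild type cells, with little difference in Clk/Clk cells (response -0.17). Mmp14, the membrane-anchored collagenase and activator of proMMP-2, lay at -0.10 transfected and 2.19 mock in Per2m/m cells, 2.16 transfected and 2.26 mock in Clk/Clk, with 1.83 transfected and 2.81 mock in wild type cells. The transfected Per2m/m array lay below the other 5, and Mmp14 was 4.90-fold lower there than on its mock array. So in Per2m/m cells the enzyme and its activator differed in opposite directions, whereas in wild type cells both were lower after transfection, Mmp14 by 1.97-fold.

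Mmp17, a membrane-type MMP held by a lipid anchor, lay at -3.24 transfected and 0.99 mock in Per2m/m cells, -0.12 transfected and -1.42 mock in Clk/Clk, with -0.47 transfected and 1.53 mock in wild type cells. It was 18.8-fold lower after transfection in Per2m/m and 4.01-fold lower in wild type cells, but 2.45-fold higher in Clk/Clk cells. Mmp23, an MMP anchored through its prodomain, lay at -4.87 transfected (not well above background) and 2.91 mock in Per2m/m cells, 2.93 transfected and 3.21 mock in Clk/Clk, with 2.41 transfected and 3.55 mock in wild type cells. The 5 other arrays lay within 2.41 to 3.55, and the transfected Per2m/m array at least 181-fold below its mock. Mmp19 was 7.07-fold higher in Clk/Clk than in wild type transfected cells and 2.18-fold higher in mock cells. Mmp11 (stromelysin-3) was 2.38-fold higher after transfection in Per2m/m cells, and its second probe gave the same response of 1.25. Mmp15, Mmp24 and Mmp25, the other membrane-type members, were well above background on 2, 4 and 1 of the 6 arrays.

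Of the 6 kept ADAMTS members of the group that cuts aggrecan and versican, Adamts5 and Adamts9 were called lower after transfection in all 3 genotypes. Adamts5, an aggrecanase (probe chr16:85899450-85899509, mm9), lay at -4.36 transfected and 0.98 mock in Per2m/m cells, -0.77 transfected and 0.32 mock in Clk/Clk, with -0.85 transfected and 1.73 mock in wild type cells. Every transfected array lay below all 3 mock arrays. The gene was 40.5-fold lower after transfection in Per2m/m, 2.12-fold lower in Clk/Clk and 5.97-fold lower in wild type cells, and its second probe gave responses of -5.34, -1.83 and -2.75. Adamts9, a versicanase, lay at -6.80 transfected (not well above background) and -1.28 mock in Per2m/m cells, 1.17 transfected and 2.21 mock in Clk/Clk, with -2.89 transfected and -0.90 mock in wild type cells. It was at least 9.92-fold lower after transfection in Per2m/m, 2.06-fold lower in Clk/Clk and 3.95-fold lower in wild type cells. Transfected and mock arrays overlapped, since both Clk/Clk arrays lay above all 4 others. The second Adamts9 probe gave responses of -2.79, -0.61 and -1.96, under 2-fold in Clk/Clk cells.

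Adamts1, which cuts versican, lay at 3.18 transfected and 4.04 mock in Per2m/m cells, 3.49 transfected and 3.04 mock in Clk/Clk, with 2.53 transfected and 4.29 mock in wild type cells, 3.40-fold lower after transfection in wild type cells and under 2-fold apart in the other genotypes. Adamts4, the other classical aggrecanase, lay at -1.26 transfected and -0.21 mock in Per2m/m cells, -0.35 transfected and 0.89 mock in Clk/Clk, with -0.53 transfected and 0.01 mock in wild type cells. Within each genotype the transfected array was the lower, with responses of -1.05, -1.24 and -0.54. Adamts15 was well above background on the mock Clk/Clk array alone, at -0.45, against -5.54 on the transfected Clk/Clk array and -7.49 to -6.61 on the other 4. It was at least 16.9-fold lower after transfection in Clk/Clk cells, and at least 39.8-fold higher in Clk/Clk than in wild type mock cells. Adamts8 lay within -4.49 to -3.67 on all 6 arrays.

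Adamts2 and Adamts14 cut the N-terminal propeptides from fibrillar procollagens. Adamts2 lay at 4.10 transfected and 3.06 mock in Per2m/m cells, 3.10 transfected and 4.35 mock in Clk/Clk, with 4.09 transfected and 3.70 mock in wild type cells. It was 2.05-fold higher after transfection in Per2m/m and 2.38-fold lower in Clk/Clk cells, and its second probe gave 0.95 and -1.35. Adamts14 was 4.90-fold lower after transfection in Per2m/m cells, but its second probe was not well above background on the transfected array and gave a response of -0.44. Adamts6 lay at -4.12 transfected and -1.94 mock in Per2m/m cells, 0.12 transfected and -1.39 mock in Clk/Clk, with -3.09 transfected and -0.60 mock in wild type cells. The transfected array was thus 4.55-fold lower in Per2m/m, 2.85-fold higher in Clk/Clk and 5.62-fold lower in wild type cells. Adamts12 lay at -4.07 transfected and -1.36 mock in Per2m/m cells, -3.21 transfected and -4.14 mock in Clk/Clk, with -3.90 transfected and -0.96 mock in wild type cells. The mock Per2m/m and mock wild type arrays were the 2 highest, and the transfected arrays were 6.58-fold and 7.65-fold below them. Adamts7, known to cut cartilage oligomeric matrix protein, was 4.41-fold higher in Clk/Clk than in wild type transfected cells and 6.07-fold higher in mock cells. Adamts13, the protease of von Willebrand factor, was well above background on the transfected Per2m/m array alone, at least 2.45-fold above its mock. A second Adamts13 probe was not well above background on any array and gave a response of 0.39 in Per2m/m cells.

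Among the ADAMTS-like proteins, Adamtsl1 was lower after transfection in all 3 genotypes. It lay at -6.62 transfected (not well above background) and -1.89 mock in Per2m/m cells, -3.21 transfected and -1.68 mock in Clk/Clk, with -3.94 transfected and -0.84 mock in wild type cells. The transfected arrays all lay below all 3 mock arrays, and each was below its own mock by at least 6.52-fold in Per2m/m, 2.88-fold in Clk/Clk and 8.56-fold in wild type cells. Its second kept probe was well above background on the mock wild type array only and gave responses of -0.58, -1.04 and -2.74. Adamtsl3 lay at -6.32 transfected (not well above background) and -3.71 mock in Per2m/m cells, -5.79 transfected and -4.56 mock in Clk/Clk cells (both not well above background), with -2.30 transfected and -3.31 mock in wild type cells. It was at least 1.85-fold lower after transfection in Per2m/m and 2.00-fold higher in wild type cells. Adamtsl4, which binds the microfibril protein fibrillin-1, was lower in Clk/Clk than in wild type cells by 5.16-fold transfected and 2.15-fold mock. Adamtsl5 gave a response of 1.49 in Per2m/m cells, while its second probe gave -0.14.

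**Figure D2:**
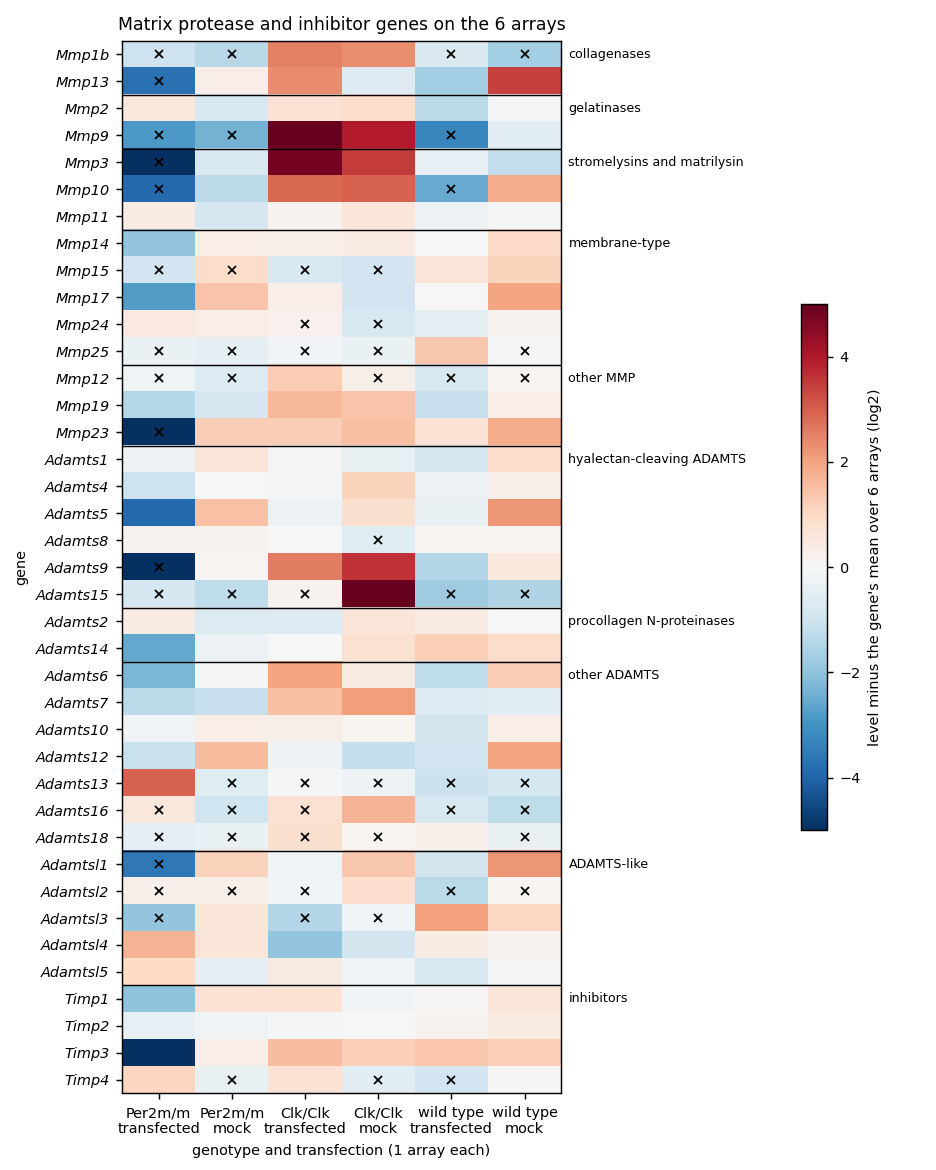
Level of each of the 39 members (rows, grouped by role) on each of the 6 arrays (columns), as the difference from the gene's own mean over the arrays (log2, colour scale cut at -5 and 5), with a cross where the probe was not well above background. Mmp23 and Timp3 are lowest on the transfected Per2m/m array, and Mmp9 and Mmp3 are highest on the Clk/Clk arrays.

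The TIMPs are the main tissue inhibitors of these enzymes. Timp1 (probe chrX:20451802-20451861, mm9) lay at 5.36 transfected and 8.09 mock in Per2m/m cells, 8.08 transfected and 7.22 mock in Clk/Clk, with 7.43 transfected and 7.95 mock in wild type cells. The transfected Per2m/m array was 6.63-fold below its mock and below all other arrays, which lay within 7.22 to 8.09. Timp3, the TIMP that stays bound to the matrix and also blocks ADAM and ADAMTS enzymes (probe chr10:85811696-85811755, mm9), lay at -0.38 transfected and 5.62 mock in Per2m/m cells, 6.84 transfected and 6.47 mock in Clk/Clk, with 6.66 transfected and 6.46 mock in wild type cells. It was 63.8-fold lower after transfection in Per2m/m cells and 131-fold lower there than in transfected wild type cells, with responses of 0.37 in Clk/Clk and 0.20 in wild type cells. Timp2, which with Mmp14 takes part in proMMP-2 activation, lay within 7.42 to 8.27 on all 6 arrays, with responses of -0.24, -0.07 and -0.26 in Per2m/m, Clk/Clk and wild type cells. Median scaling instead gave 0.04 in Per2m/m cells and 0.06 in wild type cells, so their direction is not fixed. Timp4 lay at -3.54 transfected and -4.98 mock in Per2m/m cells, -3.90 transfected and -5.20 mock in Clk/Clk, with -5.59 transfected and -4.55 mock in wild type cells. The probe was well above background on the transfected Per2m/m, transfected Clk/Clk and mock wild type arrays only.

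Over the 6 arrays the genes whose levels were most like those of Timp1 were Elmo2, Odf2 and Npr3, with Pearson r of 0.993, 0.991 and 0.991 among 12651 genes well above background on all arrays, as a description of 6 points of which 1 lies far from the rest.

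**Figure D3:**
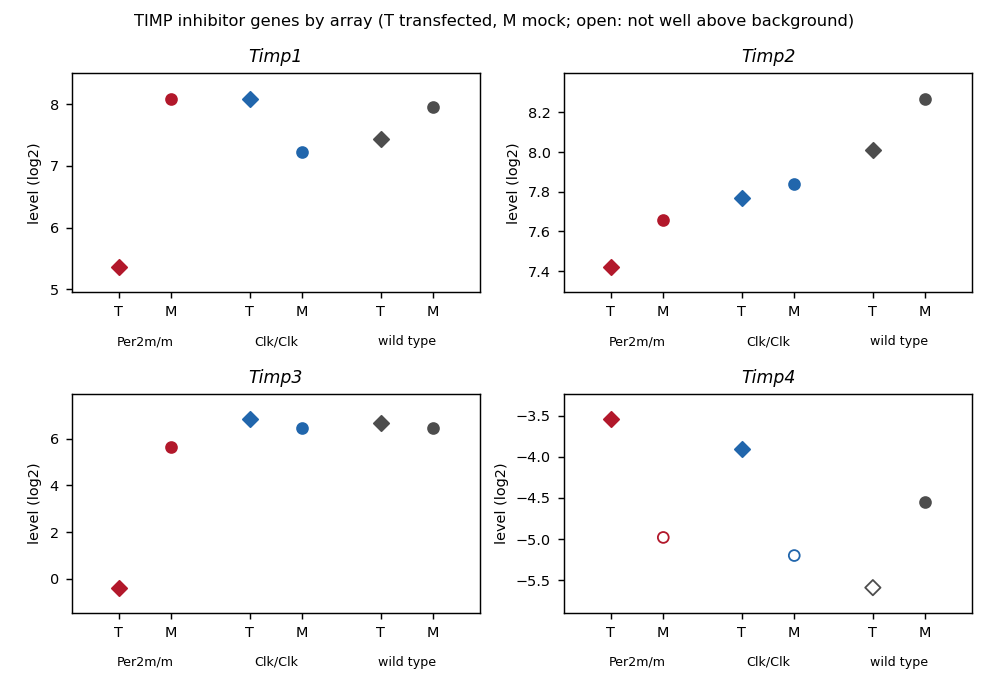
Level (log2, y axis, own scale in each panel) of the 4 TIMP genes on the 6 arrays, with transfected (T, diamonds) left of mock (M, circles) in each genotype and open marks where the probe was not well above background. Timp3 is at -0.38 on the transfected Per2m/m array and between 5.62 and 6.84 on the other 5, while Timp2 spans 7.42 to 8.27.

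Counted over the 39 members, transfection went with 7 called higher and 16 called lower in Per2m/m cells, where 18.7% of all genes were called higher and 20.6% lower. The 7 were Mmp2, Mmp11, Adamts2, Adamts13, Adamtsl4, Adamtsl5 and Timp4. In Clk/Clk cells 6 members were called higher, Mmp3, Mmp9, Mmp13, Mmp17, Adamts6 and Timp4, and 7 lower, Adamts2, Adamts4, Adamts5, Adamts9, Adamts15, Adamtsl1 and Adamtsl4, where 3.74% of all genes were called higher and 4.18% lower. In wild type cells 2 were called higher, Mmp25 and Adamtsl3, and 15 lower, against 7.46% and 11.9% of all genes. The median response of the members was -0.53 in Per2m/m, 0.17 in Clk/Clk and -0.60 in wild type cells, and that of all kept genes 0.12, 0.02 and 0.00. In bulk RNA fewer cells of a type and less RNA per cell cannot be told apart. Among the 19 members well above background on all arrays, 9 were called lower in Per2m/m, 4 in Clk/Clk and 8 in wild type cells, against 13.7%, 2.15% and 6.17% of the 12661 genes at that level on all arrays. 10 members were called in no genotype, among them Timp2, Adamts7 and Mmp1b, and the share of all genes called in none is not given. Of the 10 only Timp2 and Adamts7 were well above background on all 6 arrays, and a dim member can hardly be called. Over 5 alternatives of scaling, background and probe choice, 16 of the 44 called responses of 22 named members came under 2-fold at least once. These include Adamts2 and Adamts4 in Per2m/m cells, Adamts5, Adamts9, Adamtsl1 and Mmp9 in Clk/Clk cells, Mmp2, Mmp9 and Mmp23 in wild type cells, and Timp4 in all 3.

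Members called lower in all 3 genotypes were Adamts5, Adamts9 and Adamtsl1, 3 of 39, against 0.555% of all genes, and 0 were called higher in all 3, against 0.0983%. Without the Per2m/m arrays, the same 3 were called lower in both Clk/Clk and wild type cells (0.931% of all genes) and 0 higher (0.324%). With normexp background correction 0 members were called lower in all 3 genotypes, and the share of all genes under that setting is not given. Per2m/m and wild type cells shared 9 members called lower, Adamts5, Adamts6, Adamts9, Adamts12, Adamtsl1, Mmp10, Mmp13, Mmp17 and Mmp23, against 6.89% of all genes, and 0 called higher, against 3.06%. Of these 9, Mmp13, Mmp17 and Adamts6 were called higher in Clk/Clk cells. Each response has its own mock array, so no control was shared.

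**Figure D4:**
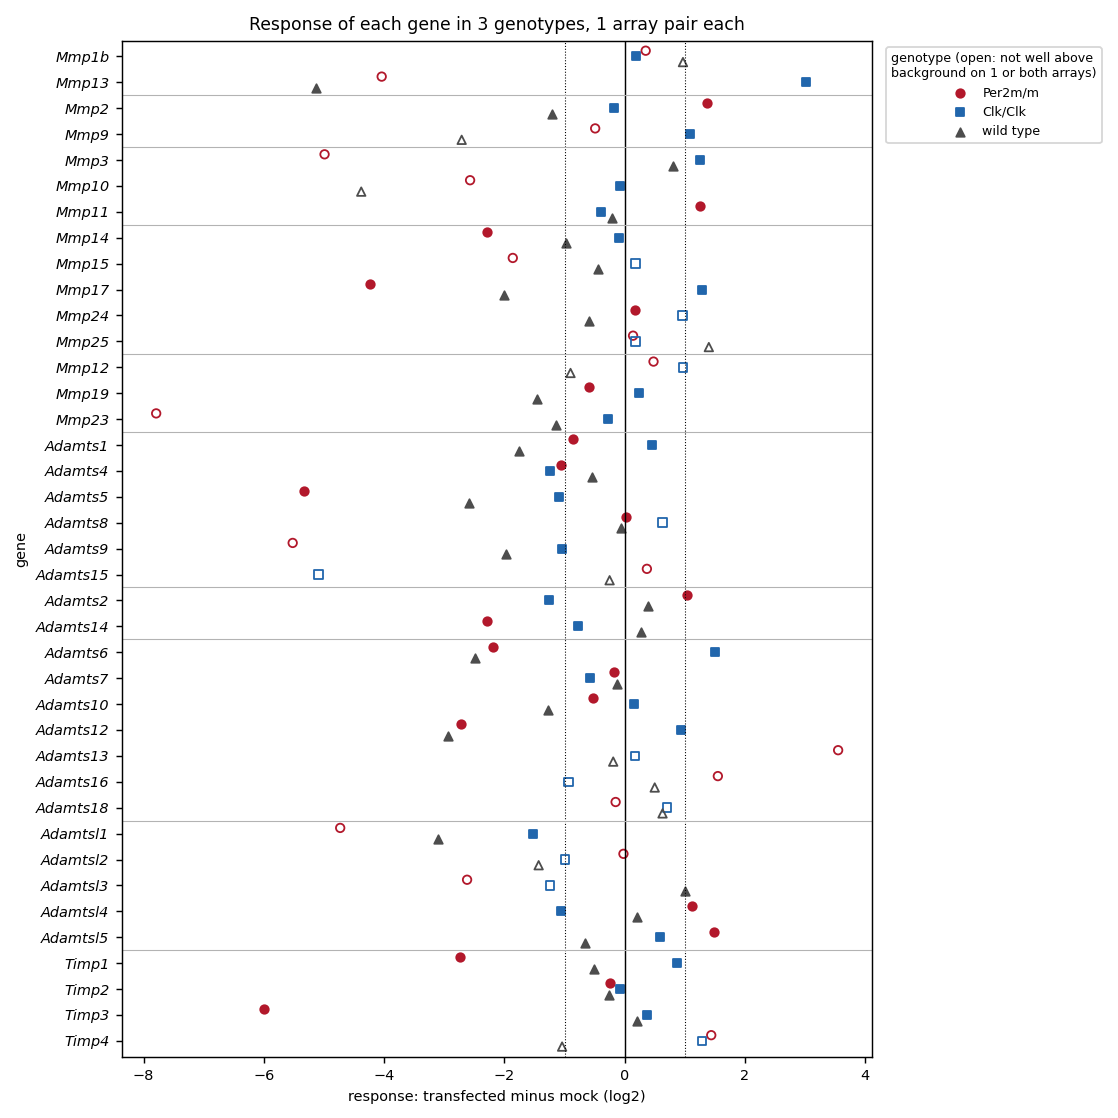
Response of each member (rows, grouped by role) as transfected minus mock on the log2 scale (x axis), with circles for Per2m/m, squares for Clk/Clk and triangles for wild type cells, open where the probe was not well above background on 1 or both arrays of the pair, and dotted lines at 2-fold. Adamts5, Adamts9 and Adamtsl1 lie left of the lower line in all 3 genotypes, and Mmp13 lies at 3.01 in Clk/Clk cells against -5.13 in wild type cells.

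Among mock cells 0 members were called higher and 7 lower in Per2m/m than in wild type (4.35% and 4.5% of all genes), the largest being Mmp10 at 9.05-fold lower and Mmp13 at 8.48-fold lower. In Clk/Clk mock cells 9 were called higher and 8 lower than in wild type (10.5% and 10.6%). Among transfected cells 5 members were called higher and 15 lower in Per2m/m than in wild type (14.7% and 16.2%), and 14 higher and 5 lower in Clk/Clk than in wild type (13.8% and 11%). Of the 15, Mmp13, Mmp15 and Mmp25 were dim on the transfected Per2m/m array and no fold can be given. Adamtsl1, also dim there, was at least 1.57-fold lower. Of the 5 lower in Clk/Clk cells, no fold can be given for Mmp15 and Mmp25. The median difference of the members between Clk/Clk and wild type transfected cells was 0.73, with 31 of 39 above 0, against -0.11 for all genes. Under median scaling these medians were 0.09 and -0.75, so the shift of the whole array moved both. Among the 31 above 0, Adamts13, Adamts15, Adamts16 and Adamtsl2 were not well above background on either array. For Adamts18 and Mmp24 no fold can be given. With dim members at their bound, and those dim on both arrays left out, the median of the members was 0.65. The Per2m/m and Clk/Clk comparisons within a condition share the wild type array.

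Members called in the same direction in both mock and transfected cells were Mmp1b, Mmp3, Mmp9, Mmp10, Mmp19, Adamts7 and Adamts9, all higher in Clk/Clk than in wild type, 7 of 39 against 5.83% of all genes. Mmp1b was kept only through Clk/Clk arrays, which favours a higher level there, so its call tests nothing. The 3 lower were Mmp15, Adamtsl3 and Adamtsl4, against 3.47%, and for Mmp15, not well above background in Clk/Clk cells, no fold can be given. Mmp15 was kept only through the wild type arrays. In Per2m/m cells 0 members were higher in both conditions (0.601% of all genes) and 4 lower, Mmp13, Adamts6, Adamts14 and Adamtsl1 (1.17%), or 2 lower with dim values at their bound. With normexp background correction the numbers were 4 higher and 0 lower in Clk/Clk and 1 lower in Per2m/m cells, again without a share of all genes under that setting.

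**Figure D5:**
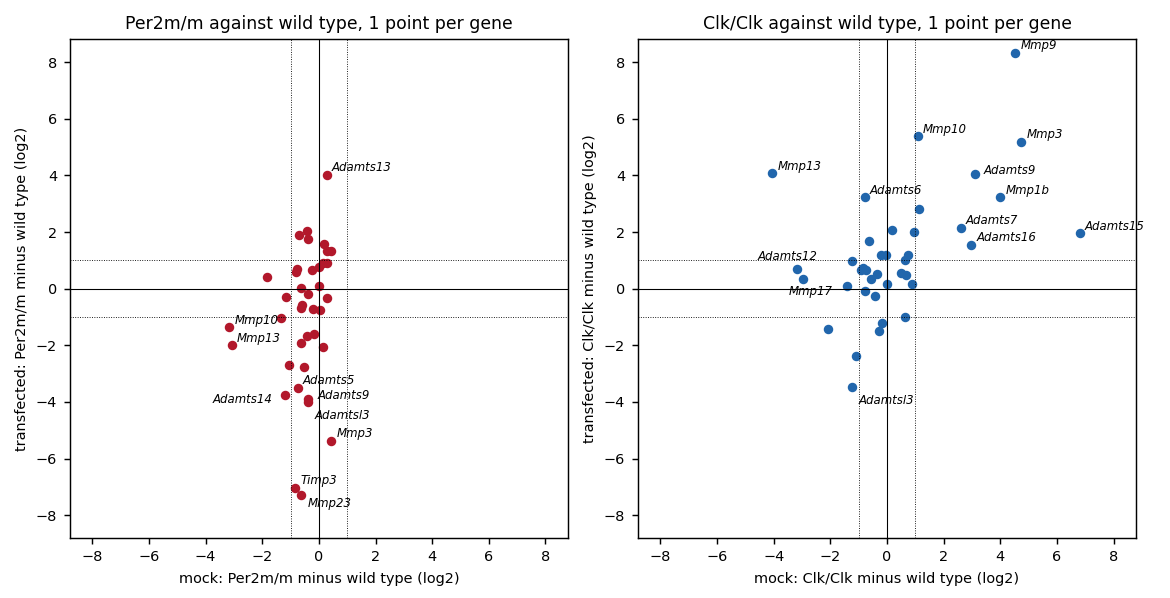
Log2 difference from wild type of each member in transfected cells (y axis) against mock cells (x axis), for Per2m/m (left) and Clk/Clk (right), 1 point per gene, with dotted lines at 2-fold and names on the largest differences. Mmp3, Mmp9, Mmp1b and Adamts9 lie at the upper right for Clk/Clk cells, and Timp3 and Mmp23 are lowest on the y axis for Per2m/m cells but within 2-fold on the x axis.

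A limma fit of genotype plus transfection used the 6 arrays and left 2 residual degrees of freedom. In it 0 of 17293 genes (0%) passed an adjusted p of 0.05 for any coefficient, and the lowest adjusted p of a member was 0.696 for transfection, 0.936 for Per2m/m and 0.258 for Clk/Clk against wild type. At an unadjusted p under 0.05 the members were Adamts4, Adamts5 and Adamtsl1 for transfection, all lower (800 genes in all, 4.63%), with Adamtsl1 not well above background on the transfected Per2m/m array. They were Adamts14, lower, for Per2m/m (387 genes, 2.24%), and 8 members for Clk/Clk (1604 genes, 9.28%), with Mmp1b, Mmp9, Mmp10, Mmp19, Adamts7, Adamts9 and Adamts16 higher and Mmp15 lower. Of the 8, Mmp1b, Mmp9, Mmp10, Adamts9, Adamts16 and Mmp15 were not well above background on every array, and Mmp1b and Adamts16 were kept only through Clk/Clk arrays. The Clk/Clk coefficient of Adamts7 was 2.37 ± 0.32 (SE, log2), and the transfection coefficient of Adamts4 was -0.94 ± 0.28, both from members well above background on all 6 arrays. Without the mock Per2m/m array 552 genes passed for Per2m/m against wild type, with the transfected Per2m/m array then its lone sample, assumed to vary like the others. Of these 552, 4 were members: Timp3, Mmp23 and Mmp3, lower, and Adamts13, higher. Adamts13 was kept only through that lone array, and Mmp23 and Mmp3 were not well above background on it. Without the transfected Per2m/m array 0 members passed for any coefficient.

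Genes that activate, bind or act with matrix proteases were read as a list of 30, of which 29 were kept. In Per2m/m cells 2 were called higher and 16 lower after transfection, with a median of -1.62, in Clk/Clk cells 4 and 4 with a median of 0.25, and in wild type cells 2 and 11 with a median of -0.33. Of all genes 18.7% were called higher and 20.6% lower in Per2m/m, 3.74% and 4.18% in Clk/Clk, and 7.46% and 11.9% in wild type cells. The plasminogen activator Plau lay at -6.25 (not well above background) transfected and 0.65 mock in Per2m/m cells, at least 37.9-fold lower. Thbs1, a matrix protein that binds MMPs, responded by -10.39 in Per2m/m, 0.86 in Clk/Clk and -2.27 in wild type cells. Reck, a membrane-bound MMP inhibitor, had responses of -0.65, -0.10 and -1.92. Thbs1 had the lowest response of the 29 in Per2m/m cells, and the 2 called higher there were Ctsl (1.49) and Thbs2 (1.06). Of 26 substrate genes 25 were kept, with 2 called higher and 17 lower in Per2m/m cells (median -2.14), 1 and 4 in Clk/Clk cells (median -0.49), and 2 and 10 in wild type cells (median -0.79). The basement membrane collagen gene Col4a1 had responses of -9.44, -0.41 and -1.38, the first being the lowest of the 25 in Per2m/m cells. The 2 called higher there were Spp1 (1.96) and Vwf (2.78), and Fn1 and Col1a2 had responses of 0.51 and 0.50.

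Of 22 AP-1, ETS and NF-kB genes all were kept, and 2 were called higher and 7 lower in Per2m/m cells (median -0.36), 1 and 3 in Clk/Clk cells (median -0.08), and 5 and 0 in wild type cells (median 0.45). The shares of all genes called higher and lower were, in that order, 18.7% and 20.6%, 3.74% and 4.18%, and 7.46% and 11.9%. Fosl1, an AP-1 subunit that Ras signalling is known to raise, had responses of -0.35 in Per2m/m, 1.04 in Clk/Clk and 1.47 in wild type cells. Fos lay at -5.18 (not well above background) on the transfected Per2m/m array, against -0.08 on its mock array.

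Cell type markers moved with the same arrays. The counts below stand against 18.7% of all genes called higher and 20.6% lower in Per2m/m cells. These shares were 3.74% and 4.18% in Clk/Clk, and 7.46% and 11.9% in wild type cells. The 12 kept of 14 macrophage markers had a median response of -2.25 in Per2m/m cells with 10 called lower, 0.17 in Clk/Clk cells with 0 called, and -1.39 in wild type cells with 7 lower and 2 higher. Their log2 summed level was 4.15 transfected and 5.79 mock in Per2m/m cells, 5.82 transfected and 5.93 mock in Clk/Clk, with 4.58 transfected and 5.55 mock in wild type cells. Itgam was the brightest of these markers on every array, at 3.51 to 5.77, and weighs most in this sum. By median level the 12 lay at -2.47 transfected and 0.28 mock in Per2m/m cells. The median was -3.71 transfected and -4.17 mock in Clk/Clk, and -4.38 transfected and -1.12 mock in wild type cells. All 6 smooth muscle markers were called lower in Per2m/m cells (median -7.97), where their log2 summed level was 3.67 transfected and 10.8 mock, and the other 4 arrays lay between 10.2 and that mock value. Of the 12 fibroblast markers 7 were called lower in Per2m/m (median -1.30), 1 higher and 1 lower in Clk/Clk (-0.14), and 1 higher and 4 lower in wild type cells (-0.33). Thy1 had responses of -7.76, -0.17 and -3.34, the first being the lowest of the 12 in Per2m/m cells. Col1a2, S100a4 and Twist1 went the other way on that pair of arrays, with 0.50, 0.84 and 0.49, all under 2-fold. Vim and Pdgfra differed little there, with -0.34 and -0.04. The fibroblast marker called higher in wild type cells was Pdgfra, with a response of 2.07. Epithelial, endothelial, chondrocyte and neutrophil markers had median responses in Per2m/m cells of -0.03, -0.66, -1.58 and -0.32. There 3 epithelial markers were called higher and 2 lower, 0 endothelial higher and 2 lower, 1 chondrocyte higher and 5 lower, and 1 neutrophil higher and 2 lower. The epithelial keratin gene Krt14 had a response of 6.70, and Krt8 and Cdh1 were well above background on the transfected Per2m/m array but not on its mock array. Krt18 and Krt19 went the other way, with responses of -4.45 and -6.98, and were well above background on the mock array only. In Clk/Clk cells the median responses of the epithelial, endothelial, chondrocyte and neutrophil markers were -0.13, 0.19, 0.19 and -0.10. In wild type cells they were -0.77, -0.39, -0.39 and -0.78. The part of any of these in the members' responses was not tested.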

How the data were processed

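Total RNA of 6 samples was labelled with 1 colour and hybridised to 6 Agilent arrays on 1 slide with 1 scan time. Samples were grouped by their titles. Per the file headers, the deposited intensity values came from Feature Extraction 10.7.1.1 on build mm9, and the submitters' processing notes name Agilent Feature Extraction 9.5.1.1. The authors' deposited value table, an alternative here, holds intensity whose columns each had a median of 23.8 and correlated with the log2 signal of the same array at 0.998 or more. It was used as quantile-normalized signal.

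Each array had 59305 spots that were not controls, of which 85 to 125 were left out as outliers and 0 were saturated. The number of arrays limits the precision. Spots of a probe were averaged, log2 of the processed signal was scaled to each array's 75th percentile, and probes were named through RefSeq accessions (27235), symbols (3581) or synonyms (565) of a GRCm38.p6 gene table, or kept the file's name (1146); 23154 of 55681 stayed unnamed. A gene was its brightest probe well above background on at least 1 array, and 13 genes had a missing value on an array after outlier removal. limma 3.58.1 (R 4.3.3) was fitted on all 17293 kept genes with Benjamini-Hochberg adjustment, and the code was tested on simulated data. Python 3.11.15, pandas 2.3.3 and numpy 2.4.6 did the rest.

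Named genes were the 8 largest called responses per genotype, those called alike in all 3 genotypes or opposite in Per2m/m and wild type cells, and Timp1 to Timp4, Mmp2, Mmp3, Mmp9, Mmp10, Mmp13, Mmp14, Adamts1, Adamts2, Adamts4 and Adamts5, 22 in all. Other members were named after their values were seen. The members and lists were chosen with earlier results of these data known. Alternatives were other scalings, normexp (offset 50), the authors' table, other filters, the mean of probes, bounds for dim members and leaving out arrays. Sequences are from RefSeq.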

Additional observations from a re-analysis of the deposited data

Results flagged for a closer look

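The members below were called in opposite directions in 2 genotypes, with 1 array pair each, and the difference of the responses was not tested. Groups of 1 array allow no check for outlying samples. Between Per2m/m and wild type cells, Mmp2 had responses of 1.37 and -1.21, a difference of 2.58, Timp4 of 1.44 and -1.04, a difference of 2.49, and Adamtsl3 of -2.62 and 1.00, a difference of -3.62.

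Between Clk/Clk and wild type cells the difference was 8.14 for Mmp13 (3.01 and -5.13), 4.00 for Adamts6 (1.51 and -2.49), 3.79 for Mmp9 (1.09 and -2.71), 3.30 for Mmp17 (1.29 and -2.00) and 2.34 for Timp4 (1.29 and -1.04).

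Between Per2m/m and Clk/Clk cells it was -7.05 for Mmp13 (-4.04 and 3.01), -6.25 for Mmp3 (-4.99 and 1.26), -5.52 for Mmp17 (-4.23 and 1.29), -3.70 for Adamts6 (-2.19 and 1.51), 2.28 for Adamts2 (1.04 and -1.25) and 2.18 for Adamtsl4 (1.12 and -1.06). The Timp4, Mmp9, Adamtsl3 and Mmp3 values each include an array where the probe was not well above background, and so does Mmp13 in Per2m/m cells.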

How the results depend on the processing

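No called response of the 22 named members changed sign under the alternatives run. Over 5 alternatives of scaling, background, table and probe choice, 28 of their 44 called responses stayed at least 2-fold throughout and 16 did not, among them all 3 of Timp4 (0.58 to 1.72 in Per2m/m, 0.27 to 1.38 in Clk/Clk, -1.04 to -0.37 in wild type cells), Adamts2 in Per2m/m (0.88 to 1.32), Adamts9 in Clk/Clk (-1.13 to -0.83) and Mmp10 in Per2m/m cells (-2.79 to -0.18). The median response was -0.25 in Per2m/m cells and -0.29 in wild type with median scaling, -0.69 in Per2m/m and 0.02 in Clk/Clk with quantile normalization, -0.15 in Per2m/m and -0.36 in wild type with normexp, -0.43 in Per2m/m and 0.02 in Clk/Clk in the authors' table, -0.15 and -0.45 in Per2m/m and wild type with no filter, -0.86 in Per2m/m and -0.07 in Clk/Clk over members well above background on all 6 arrays, 0.01 in Clk/Clk and -0.74 in wild type with the mean of probes, and -0.87 in Per2m/m and -0.07 in Clk/Clk with dim members at their bound. For the counts that follow, the share of all genes called under the same setting is not given. The exception is the lower calls over genes well above background on all 6 arrays, given above. These counts therefore cannot be told apart from a change over all genes. With normexp, counts were 4 higher in Per2m/m, 3 lower in Clk/Clk and 0 higher in wild type cells after transfection. Mock counts were then 3 lower in Per2m/m, and 5 higher and 5 lower in Clk/Clk than in wild type, and transfected counts 8 lower in Per2m/m and 3 lower in Clk/Clk. Joint counts were then 0 lower in all 3 genotypes, 0 lower in both Clk/Clk and wild type, 1 lower in Per2m/m, and 4 higher and 0 lower in Clk/Clk than in wild type in both conditions. Over members well above background on all 6 arrays, which are fewer, counts after transfection were 9 lower in Per2m/m, 2 higher and 4 lower in Clk/Clk, and 0 higher and 8 lower in wild type cells. Against wild type they were 3 lower in Per2m/m and 2 higher and 5 lower in Clk/Clk mock cells, and 3 higher and 7 lower in Per2m/m and 6 higher and 2 lower in Clk/Clk transfected cells. Joint counts were 1 lower in all 3 genotypes, 1 lower in both Clk/Clk and wild type, 4 lower in both Per2m/m and wild type, 2 lower in Per2m/m, and 2 higher and 1 lower in Clk/Clk than in wild type in both conditions. Median scaling gave 13 lower in mock Clk/Clk than in wild type cells and 1 higher in both Clk/Clk and wild type. At their bound, 1 member was higher after transfection in wild type cells, 3 were lower in Clk/Clk than in wild type transfected cells, and 2 lower in Per2m/m than in wild type cells in both conditions. Except for the smaller sets the cause was not tested. Leaving out 1 array at a time, 0 to 552 genes passed the fit for Per2m/m against wild type, the 552 without the mock Per2m/m array. No paired analysis was possible because each group has a single replicate number, beyond the fit itself, which pairs both arrays of a genotype. Signal over background limits all values of members that were not well above background.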
